A study of Rattus norvegicus with 4 samples.

Results

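Endocardial endothelial cells line the inner surface of the heart chambers. They were taken here as 567 of 46590 filtered nuclei, themselves part of 48637 barcodes, in single-nucleus RNA sequencing of infarct zone tissue from Sprague Dawley rats. The 4 samples are 3 of myocardial infarction, named MI_1H, MI_6H and MI_24H, and 1 Sham. The treatment labels read those hours (1, 6 and 24 h) as reperfusion, but the series text gives ligation of the left anterior descending coronary artery for those times and describes reperfused hearts apart from them. The sources used here give neither the age of the rats nor whether a sample pools several of them.

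The 4 libraries lie in 1 matrix and are told apart by barcode suffixes that no label ties to a sample. They are called libraries 1 to 4, and no comparison with Sham or between times was made. Each library is 1 sample with no replicate, so there is no test. Values are UMIs summed over the nuclei of a class and divided by their total (CPM, UMIs per 1000000), with intervals at 95% that cover counting error only.

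A nucleus was called endocardial when it had at least 3 UMIs summed over Npr3, Nrg1 and Hmcn1, from at least 2 of these genes and making up at least 0.2% of its UMIs. It also needed at least 1 UMI of the endothelial genes Cdh5, Vwf or Ptprb, and 0 UMIs of the fibroblast receptor gene Pdgfra. Pecam1, the fourth endothelial gene of the rule, is not in the gene table under that symbol. Capillary endothelial nuclei of the same library served as the comparison, with at least 3 UMIs over Meox2, Thsd7a, Ptprb and Cyyr1 and 0 of Npr3. Of the 567 endocardial nuclei, 382 (67.4%) held at least 3 UMIs of these capillary genes. Of those, 152 had no Npr3 and so met the capillary rule too. They were counted as endocardial, which left 8232 capillary nuclei.

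The endocardium is known as a signalling tissue as well as a lining. In the developing heart it sends neuregulin to ErbB receptors on heart muscle and bone morphogenetic proteins to muscle and valve cushions, and part of it gives rise to valve tissue. Its cells face the blood of the chambers, whereas capillary endothelium lies between muscle fibres and takes up fatty acids for them. Npr3 encodes the receptor that clears natriuretic peptides, Nrg1 encodes neuregulin 1, and Hmcn1 encodes the matrix protein hemicentin 1.

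Endocardial nuclei numbered 101, 23, 296 and 147 in libraries 1 to 4, and capillary nuclei 1935, 506, 3313 and 2478. Endocardial nuclei made up 1.12% (0.914 to 1.36), 0.158% (0.0999 to 0.236), 1.80% (1.60 to 2.01) and 2.25% (1.91 to 2.64) of the filtered nuclei (exact Clopper-Pearson intervals). Library 2 stood far below the others, and its filtered nuclei had a median of 609 UMIs, against 1367, 2044 and 2356 in libraries 1, 3 and 4. Set against both endothelial sets together, the endocardial share was 4.96% (4.06 to 6.00), 4.35% (2.78 to 6.45), 8.20% (7.33 to 9.15) and 5.60% (4.75 to 6.55). On that base library 3 stood above the others and library 2 overlapped libraries 1 and 4. That order depends on the capillary rule, as the closing section shows.

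**Figure D1:**
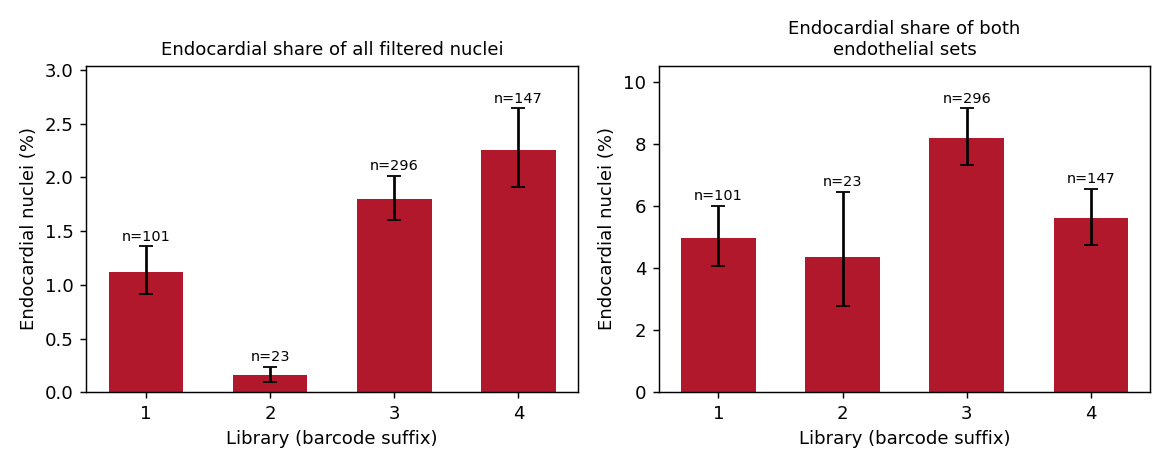
Share of endocardial nuclei in each library (x axis, barcode suffix) as a percentage of all filtered nuclei on the left and of endocardial plus capillary nuclei on the right. Bars are shares, error bars are exact binomial 95% intervals and numbers are endocardial nuclei. Library 2 is lowest on the left with 23 nuclei, and library 3 is highest on the right at 8.20%.

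The median endocardial nucleus held 1611, 2732, 2860 and 4367 UMIs, against 1424, 2137, 2944 and 3673 UMIs in the median capillary nucleus. All endocardial nuclei of a library together held 225080, 68428, 1013629 and 771985 UMIs. A gene with 0 endocardial UMIs could therefore lie at up to 13.3, 43.8, 2.96 and 3.89 CPM, the value of 3 UMIs. Because library 2 had fewer than 30 endocardial nuclei, its values are given but enter no count of genes. The share of RNA of other cells in the droplets was estimated from pooled cardiomyocyte, macrophage and neutrophil markers. Their level relative to all filtered nuclei gave 20.2, 29.1, 63.8 and 50.8% of the endocardial UMIs. For the capillary UMIs it gave 34.8, 75.6, 82.3 and 73.8%. These are not upper bounds, since single classes differed from the pool. Macrophage markers of library 1 had 124 CPM in endocardial nuclei, against 194 CPM in all filtered nuclei.

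The genes of the rule are given as a description, since they chose the nuclei. Hmcn1 was detected in 566 of the 567 nuclei, Nrg1 in 459 and Npr3 in 332, and 223 nuclei had all 3. Npr3 had 1742, 205, 439 and 275 CPM in endocardial nuclei of libraries 1 to 4 and was 0 in capillary nuclei by rule. Nrg1 had 6558, 3522, 1839.9 and 2529.8 CPM in endocardial nuclei, against 4.63, 41.9, 59.4 and 49.7 CPM in capillary nuclei, and 1 endocardial nucleus with 476 UMIs carried part of the library 1 value, which was 4604 CPM without it. Hmcn1 had 6549, 3259, 3773 and 2812 CPM in endocardial nuclei and 883, 355, 477 and 554 CPM in capillary nuclei. Both sets held Hmcn1 RNA in every library, and endocardial nuclei held more of it in each.

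Vwf, the clotting glycoprotein von Willebrand factor, had 2577, 2689, 2351 and 1988 CPM in endocardial nuclei, against 653, 366, 451 and 592 CPM in capillary nuclei. Cdh5, the endothelial cadherin, had 116, 146, 183 and 212 CPM in endocardial nuclei and 253, 164, 147 and 265 CPM in capillary nuclei. Vwf was higher in endocardial nuclei of each library, whereas the levels of Cdh5 overlapped. Vwf was seen in 93.7% and Cdh5 in 39.0% of the endocardial nuclei. The capillary rule genes Meox2, Thsd7a, Ptprb and Cyyr1 summed to 2337, 1374, 1670 and 2019 CPM in endocardial nuclei. In capillary nuclei, which they chose, they summed to 5183, 1439, 1890 and 2867 CPM, so the sets were close in libraries 2 and 3. With the matched capillary rule described below they had 6211.5, 3526, 4199 and 4537 CPM in capillary nuclei.

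The label was set against markers of the other classes that a nucleus could belong to. The 7 cardiomyocyte markers in the table summed to 3359, 1505, 1744 and 2242 CPM in endocardial nuclei, against 5793, 4322, 2300.4 and 3176 CPM in capillary nuclei. The 8 fibroblast markers summed to 235, 541, 1087 and 591 CPM in endocardial nuclei and 498, 1178, 2265 and 1332 CPM in capillary nuclei. The 8 macrophage markers summed to 124, 438, 1609 and 431 CPM in endocardial nuclei, against 189, 799, 2194 and 789 CPM in capillary nuclei. All 3 sums were lower in endocardial nuclei of each library. The capillary rule has neither a minimum share of UMIs nor a Pdgfra limit. A matched capillary rule that adds both (gate genes at 0.2% or more of the UMIs and 0 UMIs of Pdgfra), chosen after the data had been seen, lowered the cardiomyocyte sum of capillary nuclei to 3592, 2475, 1563 and 1953 CPM, which in libraries 3 and 4 is below the endocardial sum. The fibroblast and macrophage sums of endocardial nuclei stayed the lower ones. Below, its values are given where it changes a call in a list or turns or removes a stated difference.

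Lymphatic endothelium shares several genes with endocardium and was checked apart. Its 6 markers summed to 275, 497, 545 and 626 CPM in endocardial nuclei and 481, 326, 507 and 386 CPM in capillary nuclei. Mmrn1, which encodes a protein of lymphatic endothelium and platelets, had 0 UMIs in endocardial nuclei of libraries 1, 2 and 4, and the lymphatic receptor gene Flt4 had 0 in libraries 1 and 2. Reln, a further lymphatic marker, had 178, 409, 319 and 500.01 CPM in endocardial nuclei, against 6267, 2551, 2958 and 3481 CPM in nuclei assigned to lymphatic endothelium. Since Reln helped to assign the lymphatic nuclei, this gap follows from the choice of nuclei and cannot check the label. In library 1 its endocardial UMIs lay in 6 of 101 nuclei. In libraries 3 and 4 the 30 and 15 nuclei with the most Reln held 76.5 and 68.1% of them. The part of lymphatic nuclei in this was not tested.

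The 4 venous markers in the table (Ackr1 is not in it) summed to 702, 658, 665 and 795 CPM in endocardial nuclei, against 307, 291, 347 and 498 CPM in capillary nuclei. Those sums were higher in endocardial nuclei throughout, by little in libraries 3 and 4 against capillary nuclei of the matched rule, whose sums were 359.8, 379, 649 and 726 CPM. Much of this lay in 1 marker, Vcam1. It had 462, 168 and 266 CPM in endocardial nuclei of libraries 1, 3 and 4, against 37.9, 69.6 and 64.5 CPM in those capillary nuclei. Selp had 0 against 27.4 CPM in library 1 and was higher in endocardial nuclei of libraries 3 and 4. The sums thus do not speak for each venous marker. The 7 arterial markers summed to 48.9, 58.5, 191 and 269 CPM in endocardial nuclei, against 293, 146, 152 and 295 CPM in capillary nuclei, with the largest gap in library 1. Capillary nuclei of the matched rule had 330, 248, 249.5 and 417 CPM, so that the endocardial sum was the lower one in library 3 too.

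Nuclei close to the limits of the rule are described by 3 genes that the rule did not use. These are among the genes named below as higher in endocardial nuclei, and the libraries were pooled. The 12 members with exactly 3 gate UMIs had 674 CPM of Bmp6, 1349 CPM of Cgnl1 and 599 CPM of Pkhd1l1. The 27 nuclei with 2 gate UMIs, outside the rule, had 875, 1257 and 711 CPM of these genes. Those sets held 13347 and 18291 UMIs in all, so their values rest on few counts. The 125 members with a gate share of 0.2 to 0.3% had 1322, 699 and 468 CPM, and the 171 nuclei at 0.1 to 0.2%, outside, had 629, 497 and 344 CPM. For scale, all capillary nuclei together had 177, 103 and 76.8 CPM.

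A further 163 nuclei met every condition except that they held Pdgfra. They had 1194 CPM of Bmp6, 913 CPM of Cgnl1 and 416 CPM of Pkhd1l1, with 2268 CPM of fibroblast markers, against 1658 CPM of these markers in capillary nuclei.

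Endocardial and capillary nuclei were then compared gene by gene within each library. A gene was called higher or lower when (CPM + 10) differed at least 2-fold in the same direction in libraries 1, 3 and 4. Of 6553 genes tested outside the rules, 116 (1.77%) were higher and 68 (1.04%) lower in endocardial nuclei. In 80 of the 116 higher genes the endocardial level was also the highest of all classes compared in those 3 libraries. A class was compared where it had at least 30 nuclei in a library. Arterial and venous endothelium, epicardial or mesothelial nuclei and B cells had fewer in every library and were not compared. Smooth muscle was compared in library 4 only, Schwann or neuronal nuclei in library 1 only and T or NK cells in library 3 only. Neutrophils were not compared in library 1. The log2 ratio below is log2 of endocardial (CPM + 10) over capillary (CPM + 10), so it understates the ratio for low genes.

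**Figure D2:**
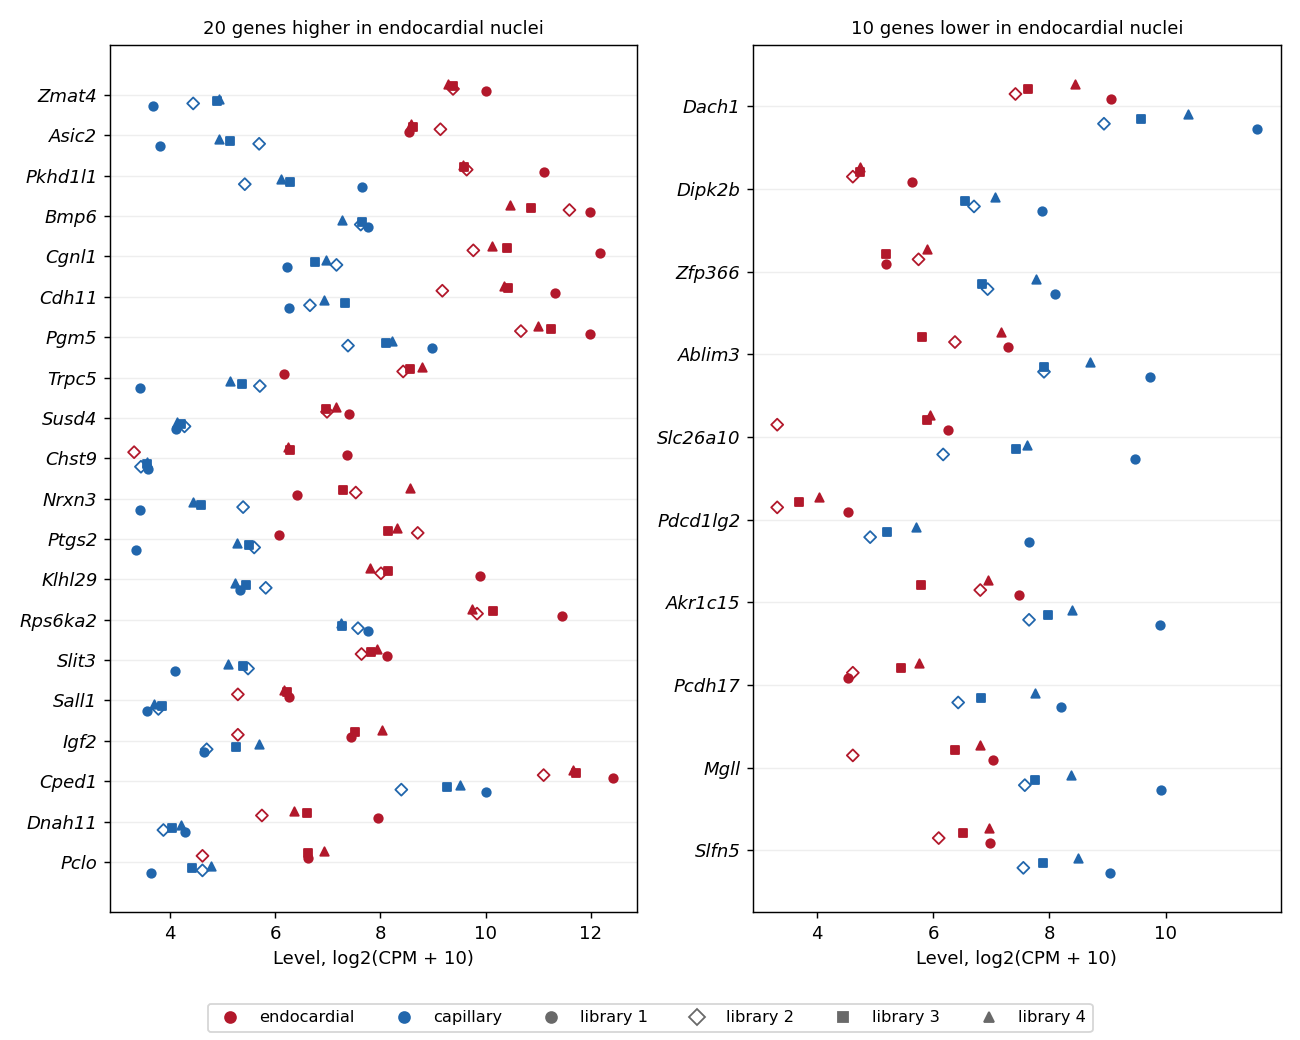
Levels as log2(CPM + 10) of the 20 genes named as higher (left) and the 10 named as lower (right) in endocardial nuclei. Red marks endocardial and blue capillary nuclei, and the shape gives the library, open for library 2. Zmat4 keeps the widest gap, with 613 CPM or more in endocardial nuclei and 20.7 CPM or less in capillary nuclei.

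Zmat4, a zinc-finger gene of little known function, had the largest difference that held in all 3 libraries. Zmat4 had 1022, 658, 661 and 613 CPM in endocardial nuclei of libraries 1 to 4, against 2.83, 11.8, 19.7 and 20.7 CPM in capillary nuclei, with log2 ratios of 4.34 to 6.33 in libraries 1, 3 and 4. Its lowest endocardial value lay far above its highest capillary value. Once every nucleus was thinned to 500 UMIs, Zmat4 was seen in 40.6, 21.3 and 22.4% of endocardial nuclei of libraries 1, 3 and 4, against 0.103, 0.966 and 0.807% of capillary and 0.102, 0.628 and 0.342% of cardiomyocyte nuclei. The counting intervals of the capillary and cardiomyocyte shares overlapped in each of these libraries. Without thinning, Zmat4 was seen in 63.4, 60.8 and 63.3% of endocardial nuclei in the same libraries.

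Among the named genes were some for secreted signals or their synthesis. Bmp6, a bone morphogenetic protein, had 4047, 3084, 1846 and 1400.3 CPM in endocardial nuclei and 208, 188, 192 and 145 CPM in capillary nuclei, a ratio of 19.5-fold in library 1 (interval 17.7 to 21.5) and 9.59-fold in library 3 (9.05 to 10.2). Against capillary nuclei of the matched rule the ratios were 18.8-fold (17.01 to 20.9) and 19.9-fold (17.7 to 22.5), so the gap between these libraries depended on the capillary rule. Every endocardial value lay above every capillary one, and the next highest compared class was fibroblasts, with 622, 330.1, 332 and 407 CPM. Smad6, which encodes an inhibitor of BMP signalling, had 778, 1081, 408 and 399 CPM in endocardial nuclei, against 162, 112, 73.4 and 105 CPM in capillary nuclei, and was called higher too. It was picked for its role after its values had been seen.

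Igf2, an insulin-like growth factor, had 164, 29.2, 174 and 251 CPM in endocardial nuclei and 15.2, 16.02, 28.4 and 41.5 CPM in capillary nuclei. Slit3, a secreted guidance ligand, had 271, 189.98, 218 and 236 CPM in endocardial nuclei, against 7.20, 34.9, 31.7 and 24.4 CPM in capillary nuclei. The endocardial values of Slit3 lay above all capillary ones, while those of Igf2 overlapped through library 2, where it had 2 endocardial UMIs. Among the 20 named genes, only Slit3 was exceeded by another compared class in a library used. That class was smooth muscle in library 4, at 483 CPM.

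Ptgs2 encodes the inducible cyclooxygenase of prostaglandin synthesis. Ptgs2 had 57.8, 409, 273 and 311 CPM in endocardial nuclei, against 0.257, 38.6, 35.5 and 28.9 CPM in capillary nuclei. The endocardial level was higher in each library and lowest in library 1, where capillary nuclei held 1 UMI and the ratio of 225-fold had an interval of 33.7 to 9549. Ptgs2 was seen in 8 of 101, 79 of 296 and 44 of 147 endocardial nuclei of libraries 1, 3 and 4. Without the 30 and 15 nuclei with the most Ptgs2, libraries 3 and 4 had 89.8 and 96.3 CPM.

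Genes of junctions and the cell surface included some of the most abundant ones. Cgnl1, which encodes the junction protein paracingulin, had 4607, 862, 1353 and 1102 CPM in endocardial nuclei and 65.03, 134, 98.8 and 115 CPM in capillary nuclei, with log2 ratios of 3.15 to 5.94. Cdh11, a cadherin of mesenchymal cells, had 2550.2, 569.9, 1371 and 1293 CPM in endocardial nuclei, against 67.3, 91.4, 149.9 and 112 CPM in capillary nuclei. Pgm5, which encodes the junction-associated protein aciculin, had 4047, 1622, 2404 and 2047 CPM in endocardial nuclei and 498, 157, 267 and 289 CPM in capillary nuclei. In all 3 genes the endocardial values stood apart from the capillary ones, and library 1 held the highest endocardial value.

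Pkhd1l1, a large membrane protein gene, had 2204, 789, 764 and 755 CPM in endocardial nuclei and 192, 32.98, 68.4 and 58.97 CPM in capillary nuclei, with log2 ratios of 3.30 to 3.47. Cped1 had 5514, 2192, 3357 and 3242 CPM in endocardial nuclei, against 1019, 328, 609 and 718 CPM in capillary nuclei, and was the most abundant of the 20 named genes in library 1. Susd4, which encodes a complement inhibitor, had 159.9, 117, 114 and 133 CPM in endocardial nuclei and 7.45, 9.42, 8.66 and 7.68 CPM in capillary nuclei. The 2 sets did not overlap in any of these genes, although capillary nuclei of library 1 held 1019 CPM of Cped1.

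Some of the named genes are known from ion channels and synapses, a grouping made after their values had been seen. Asic2, an acid-sensing sodium channel, had 364, 555, 383 and 376 CPM in endocardial nuclei, against 4.11, 41.9, 25.2 and 20.7 CPM in capillary nuclei. Trpc5, a cation channel, had 62.2, 336, 371 and 433 CPM in endocardial nuclei and 0.771, 42.4, 31.4 and 25.2 CPM in capillary nuclei. Nrxn3, a neurexin known from synapses, had 75.5, 175, 146 and 367 CPM in endocardial nuclei, against 0.771, 32.03, 14.3 and 11.7 CPM in capillary nuclei. In endocardial nuclei Asic2 kept a narrow range over the libraries, whereas Trpc5 and Nrxn3 were lowest in library 1. In capillary nuclei all 3 genes were lowest in library 1, where 3 UMIs of Trpc5 and 3 of Nrxn3 were seen. In library 1 the ratio was 80.7-fold for Trpc5 (22.5 to 438) and 97.9-fold for Nrxn3 (28.3 to 522).

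Pclo, which encodes the presynaptic scaffold piccolo, had 88.9, 14.6, 88.8 and 113 CPM in endocardial nuclei and 2.57, 14.6, 11.4 and 17.6 CPM in capillary nuclei, and overlapped in library 2, where 1 endocardial UMI was seen. Dnah11, a motor protein of cilia, had 239.9, 43.8, 87.8 and 72.5 CPM in endocardial nuclei, against 9.51, 4.71, 6.51 and 8.48 CPM in capillary nuclei. Both were low genes next to Bmp6 or Cgnl1, and these levels are per total UMIs with no correction for gene length.

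The other named genes were Rps6ka2, Klhl29, Sall1 and Chst9. Rps6ka2, a ribosomal S6 kinase, had 2777, 906, 1117 and 845 CPM in endocardial nuclei, against 209, 181, 145 and 142 CPM in capillary nuclei. Klhl29 had 942, 248, 275 and 212 CPM in endocardial nuclei and 30.3, 46.6, 33.7 and 27.8 CPM in capillary nuclei. Sall1, a transcription factor of kidney and limb development, had 66.6, 29.2, 65.1 and 62.2 CPM in endocardial nuclei, against 1.80, 3.77, 4.36 and 2.96 CPM in capillary nuclei. None of these 3 overlapped, and Klhl29 spanned the most among the endocardial values. Chst9, a sulfotransferase, had 156, 0, 68.1 and 66.1 CPM in endocardial nuclei and 2.06, 0.942, 1.83 and 1.84 CPM in capillary nuclei, so that only library 2, with its limit of 43.8 CPM, lacked it. Of the 20 named genes 17 were at least 2-fold higher in library 2 as well.

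Gene lists by role put these genes in context. Since 1.77% of all genes tested were higher and 1.04% lower, 0 or 1 called gene in a list says little about that list. Of 24 genes linked to endocardial identity, the 3 gate genes aside, 19 were tested, 8 were higher and 1 lower, and their median log2 ratio was 1.20, 0.75 and 0.89 in libraries 1, 3 and 4, against -0.14, -0.07 and -0.05 over all genes tested. Adgrg6, an adhesion receptor, had 395, 297 and 379.5 CPM in endocardial nuclei of these libraries and 10.5, 65.1 and 38.6 CPM in capillary nuclei. Smoc1, a matricellular protein gene, had 626, 43.8, 108 and 46.6 CPM in endocardial nuclei of libraries 1 to 4, against 1.80, 3.30, 4.30 and 2.88 CPM in capillary nuclei. Library 1 stood out for Smoc1, whereas Adgrg6 was similar in the 3 libraries.

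Plvap, which encodes the diaphragm protein of endothelial pores, had 39.99, 186 and 201 CPM in endocardial nuclei of libraries 1, 3 and 4, against 3.34, 41.2 and 42.01 CPM in capillary nuclei. Foxc1, a transcription factor, had 66.6, 68.1 and 76.4 CPM in endocardial nuclei and 9.77, 12.4 and 16.2 CPM in capillary nuclei. Tmem100 had 66.6, 189 and 214 CPM in endocardial nuclei, against 23.4, 51.8 and 49.2 CPM in capillary nuclei. With Adgrg6, Smoc1, Cgnl1, Cdh11 and Pkhd1l1 these were the 8 higher members, and Plvap was lowest in library 1 in both sets.

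Several transcription factors of the early endocardium passed in some libraries only. Gata4 had 524, 365, 243 and 233 CPM in endocardial nuclei of libraries 1 to 4 and 90.5, 125, 139.95 and 106 CPM in capillary nuclei, with log2 ratios of 2.41, 0.75 and 1.07 in libraries 1, 3 and 4. Gata6 had 351, 248, 194 and 169.7 CPM in endocardial nuclei, against 112, 107, 73.6 and 86.8 CPM in capillary nuclei. Both were higher in endocardial nuclei of every library but missed the 2-fold rule in 1 of the 3 libraries used, and cardiomyocytes also express them. Nfatc1, known from valve endocardium, had 159.9, 43.8, 117 and 144 CPM in endocardial nuclei and 94.6, 85.3, 109.8 and 96.7 CPM in capillary nuclei, so the 2 sets overlapped. Tbx20 had 53.3, 35.5 and 68.7 CPM in endocardial nuclei of libraries 1, 3 and 4, against 156, 106 and 118 CPM in capillary nuclei, and Bmper, a BMP-binding protein gene, 13.3, 16.8 and 19.4 CPM in endocardial nuclei and 48.6, 59.00 and 34.5 CPM in capillary nuclei. Both were lower in endocardial nuclei of the 3 libraries and missed the rule in library 4. Against capillary nuclei of the matched rule the direction did not hold, with log2 ratios of -0.60, 0.37 and 0.78 for Tbx20 and -0.73, -0.01 and 0.49 for Bmper.

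The lower member was Cdh13, an endothelial cadherin, with 791, 542 and 992 CPM in endocardial nuclei of libraries 1, 3 and 4, against 2759, 1279.8 and 2385 CPM in capillary nuclei. Its levels did not overlap between the sets.

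Of 32 genes for signals to muscle and neighbouring cells, 20 were tested, 6 were higher and 1 lower, while the median log2 ratio lay near 0 (-0.06, 0.05 and 0.09 in libraries 1, 3 and 4). Beside Bmp6, Igf2 and Slit3, the higher ones were Ece1, Dkk3 and Slit2. Ece1, the enzyme that makes active endothelin, had 715, 976 and 1054 CPM in endocardial nuclei and 263, 295 and 412 CPM in capillary nuclei. Slit2 had 173, 238 and 389.9 CPM in endocardial nuclei, against 46.3, 100.2 and 52.3 CPM in capillary nuclei, and Dkk3, of the Dickkopf family of secreted Wnt regulators, 79.97, 65.1 and 88.1 CPM in endocardial nuclei and 16.96, 20.8 and 21.5 CPM in capillary nuclei. In each of these genes all endocardial values exceeded all capillary ones. Cxcl12, a chemokine, had 4.44, 44.4 and 23.3 CPM in endocardial nuclei, against 144, 109 and 91.4 CPM in capillary nuclei, and was the lower member. With the matched capillary rule Vegfc, a growth factor for lymphatic vessels, was called lower too, with log2 ratios of -2.22 and -1.11 in libraries 1 and 4 and a value just past the limit in library 3.

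Of 5 tested receptors and proteases of the neuregulin pathway, none was higher and 1, the receptor gene Egfr, was lower, with 26.7, 27.6 and 31.1 CPM in endocardial nuclei of libraries 1, 3 and 4, against 69.1, 154 and 89.5 CPM in capillary nuclei. Egfr lost this call once capillary nuclei were chosen by a matched rule (log2 ratios -0.39, -0.32 and 0.09). Erbb4 had 53.3, 7.89 and 23.3 CPM in endocardial nuclei and 70.9, 14.7 and 25.3 CPM in capillary nuclei, and Adam10, a sheddase, 564, 282 and 277 CPM in endocardial nuclei and 331, 190.2 and 226 CPM in capillary nuclei. Neither direction held in each library with the matched rule. Its log2 ratios were 0.09, -0.08 and 0.61 for Erbb4 and 0.67, 0.06 and -0.04 for Adam10.

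None of the 7 tested genes of the natriuretic peptide system was called. Corin, the protease that activates atrial natriuretic peptide, had 666, 231 and 129.5 CPM in endocardial nuclei and 99.5, 52.1 and 87.1 CPM in capillary nuclei, with log2 ratios of 2.63, 1.96 and 0.52. Corin missed the rule in library 4 and was called higher against capillary nuclei of the matched rule (log2 ratios 3.43, 3.25 and 1.48). Npr1, the signalling receptor for these peptides, had 133, 119 and 113 CPM in endocardial nuclei, against 206, 135 and 177 CPM in capillary nuclei, lower in each, although not in library 2, with 205 CPM in endocardial and 119.7 CPM in capillary nuclei.

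None of the 11 tested Notch genes was called either, with median log2 ratios of -0.64, 0.03 and -0.42. Maml2, a Notch coactivator, had 2372, 1483 and 1658 CPM in endocardial nuclei and 1610.4, 988 and 1142 CPM in capillary nuclei, and was higher in each library by less than 2-fold. The ligand Dll4 had 8.89, 8.88 and 25.9 CPM in endocardial nuclei, against 80.7, 21.5 and 52.7 CPM in capillary nuclei, and the ligand Jag2 8.89, 12.8 and 14.2 CPM in endocardial nuclei and 78.1, 21.6 and 47.5 CPM in capillary nuclei. Both ligands were lower in endocardial nuclei of the 3 libraries and passed the 2-fold rule only against capillary nuclei of the matched rule.

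Of 17 tested genes of flow sensing none was called, with median log2 ratios of 0.11, -0.03 and -0.06. Gja4, a connexin, had 8.89, 109 and 123 CPM in endocardial nuclei, against 7.45, 21.1 and 27.05 CPM in capillary nuclei, and so differed in libraries 3 and 4 and not in library 1, where 2 endocardial UMIs were seen. The sphingosine phosphate receptor S1pr1 had 35.5, 33.5 and 60.9 CPM in endocardial nuclei and 132, 55.4 and 127 CPM in capillary nuclei, lower in each. Against capillary nuclei of the matched rule 2 of 19 tested genes were called lower, S1pr1 (log2 ratios -1.86, -1.40 and -1.44) and Cav1, which encodes the coat protein of caveolae (-1.01, -1.02 and -1.09).

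Of 15 tested genes linked to endothelial-mesenchymal transition and valve cushions, 1 was higher and none lower. It was Vcan, the matrix proteoglycan versican, with 279.9, 1999.8 and 1889.9 CPM in endocardial nuclei of libraries 1, 3 and 4, against 54.8, 932 and 499 CPM in capillary nuclei. Fn1, fibronectin, had 293, 2316 and 1727 CPM in endocardial nuclei and 64.5, 1459.97 and 669 CPM in capillary nuclei, and missed the rule in library 3. Library 1 was far below the others for both genes in both sets. Of the mesenchymal genes, Postn had 8.89, 183 and 115 CPM in endocardial nuclei and 17.99, 369.9 and 241 CPM in capillary nuclei, and Prrx1 8.89, 33.5 and 19.4 CPM in endocardial nuclei and 24.2, 106 and 56.4 CPM in capillary nuclei, neither being called. Both stood lower in endocardial nuclei, as did the fibroblast marker sums given above, whose part in this was not tested. Against capillary nuclei of the matched rule, which hold no Pdgfra, the difference was smaller, with log2 ratios of -0.07, -0.27 and 0.01 for Postn and -0.44, -0.01 and -0.18 for Prrx1. That comparison had 3 higher genes of 14 tested, with Cdh2, the neural cadherin (1.35, 2.16 and 1.97), and Tgfbr3, a co-receptor for TGF-beta (1.52, 1.05 and 1.13), beside Vcan.

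Of 36 tested matrix genes, 2 were higher and 2 lower, and the median log2 ratio was -0.35, -0.40 and -0.46. Ltbp1, which binds latent TGF-beta in the matrix, had 3106, 1529 and 1249 CPM in endocardial nuclei and 466, 286 and 312 CPM in capillary nuclei. Col4a5, a basement membrane collagen, had 498, 192 and 223 CPM in endocardial nuclei, against 125, 82.5 and 84.5 CPM in capillary nuclei. Neither overlapped between the sets. Col4a1, a more abundant basement membrane collagen gene, had lower endocardial values without being called, with 213, 524 and 514 CPM in endocardial nuclei and 599, 884 and 1169 CPM in capillary nuclei. Fbln5, an elastic fibre protein gene, had 4.44, 33.5 and 49.2 CPM in endocardial nuclei, against 172, 81.5 and 148 CPM in capillary nuclei. Loxl2, a collagen cross-linking enzyme, had 4.44, 45.4 and 31.1 CPM in endocardial nuclei and 43.95, 107 and 72.7 CPM in capillary nuclei, a call lost with the matched capillary rule (log2 ratios -2.04, -0.67 and -0.78). That rule gave 4 higher and 4 lower genes of 36 tested. The collagen gene Col4a3 (log2 ratios 1.79, 1.18 and 1.54) and the elastic fibre gene Emilin1 (1.38, 1.11 and 1.82) were added as higher, and the collagen genes Col4a2 (-2.32, -1.12 and -1.06) and Col15a1 (-1.35, -1.36 and -1.22) and the matrix protease gene Adamts9 (-2.12, -1.65 and -1.36) as lower.

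Of 14 tested genes of coagulation and fibrinolysis, 1 was higher and none lower. Procr, the endothelial protein C receptor, had 267, 213 and 259 CPM in endocardial nuclei and 11.3, 46.5 and 86.7 CPM in capillary nuclei. All its endocardial values exceeded all capillary ones.

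Of 18 tested genes of leukocyte adhesion and activation, 2 were higher and none lower. Vcam1, the adhesion molecule for monocytes and lymphocytes, had 462, 168 and 266 CPM in endocardial nuclei, against 31.4, 46.7 and 44.9 CPM in capillary nuclei. Il6st, the shared receptor chain gp130 of the interleukin 6 family, had 342, 224 and 293 CPM in endocardial nuclei and 69.9, 90.8 and 117 CPM in capillary nuclei. Neither overlapped between the sets, and with the matched capillary rule Il6st missed 2-fold in library 3 by a small margin (log2 ratio 0.99).

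The lists for interferon (9 tested), hypoxia and glycolysis (12), immediate early genes (11), heat shock and unfolded protein response (15) and cell cycle (11) held no called gene. Cell cycle genes had median log2 ratios of -0.46, -0.16 and 0.72. In library 4 Top2a, a topoisomerase of dividing cells, had 106 CPM in endocardial nuclei and 61.5 CPM in capillary nuclei, and Mki67 had 90.7 CPM in endocardial nuclei and 58.2 CPM in capillary nuclei. In library 1 both had 0 endocardial UMIs. Top2a and Mki67 were named outside the rule for list members and are given for libraries 1 and 4 only. Members by that rule had log2 ratios of -0.91 to 1.03 (Cenpf), 0.28 to 0.61 (Pola1), -0.46 to 0.86 (Diaph3) and -0.40 to 0.95 (Kif15).

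**Figure D3:**
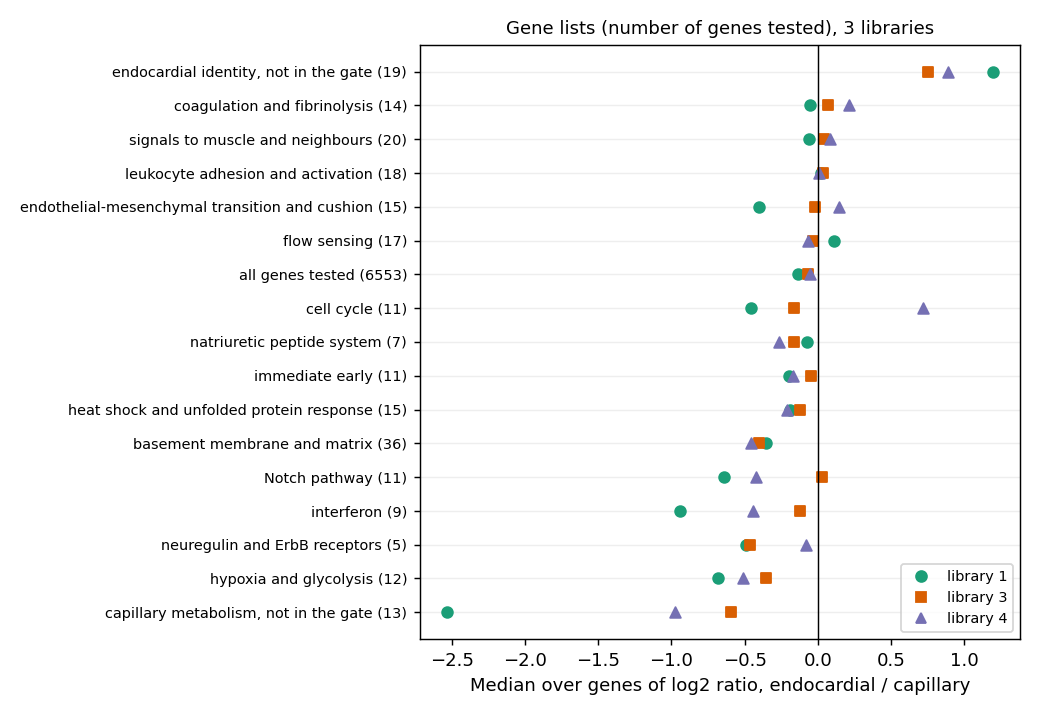
Median over the tested genes of each list of the log2 ratio of endocardial to capillary (CPM + 10), in libraries 1, 3 and 4, with the number of genes in brackets. The identity list lies highest, at 0.75 to 1.20, and the capillary metabolism list lowest, at -2.53 to -0.60, while all genes lie between -0.14 and -0.05.

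Lower genes included some of capillary endothelium. Of 24 genes known from capillary metabolism and capillary identity, 13 were tested, none was higher and 3 were lower, with median log2 ratios of -2.53, -0.60 and -0.98. Fabp4, a fatty acid carrier, had 129, 29.2, 196 and 247 CPM in endocardial nuclei of libraries 1 to 4, against 1029.7, 143, 422 and 799 CPM in capillary nuclei. Aplnr, the apelin receptor, had 0, 58.5, 23.7 and 28.5 CPM in endocardial nuclei and 47.8, 77.7, 76.7 and 120.1 CPM in capillary nuclei. Mgll, the lipase that splits monoglycerides, had 119.96, 14.6, 73.00 and 102 CPM in endocardial nuclei and 951, 181, 206 and 321 CPM in capillary nuclei. All 3 were lower in endocardial nuclei of each library. The sets did not overlap in Mgll, and those of Fabp4 and Aplnr overlapped between libraries through library 2.

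Capillary nuclei of the matched rule gave a wider contrast. Of 6400 genes tested, 151 were higher and 132 lower (2.36% and 2.06%), of which 104 and 49 were among the 116 and 68 above. All 20 named higher and all 10 named lower genes were called with it as well, and the ratio of (CPM + 10) moved by over 1.5-fold in at least 1 library for 9 of the higher and 9 of the lower ones. The capillary list then held 7 lower genes of 14 tested, with Rgcc, Btnl9, Kdr and Timp4 beside Fabp4, Mgll and Aplnr, and the identity list 10 higher genes of 18, with Gata4 and Gata6 added, and 2 lower ones, Cdh13 and Wt1.

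Among the other lower genes Dach1, a transcription factor that promotes coronary artery growth in mice, had 524, 161, 189 and 338 CPM in endocardial nuclei of libraries 1 to 4, against 3006, 480.03, 752 and 1329 CPM in capillary nuclei. Ablim3, an actin-binding protein gene, had 147, 73.1, 46.4 and 133 CPM in endocardial nuclei and 835, 229.9, 231 and 407 CPM in capillary nuclei. Akr1c15, an aldo-keto reductase, had 169, 102, 45.4 and 113 CPM in endocardial nuclei, against 943, 191, 242 and 325 CPM in capillary nuclei. Each was lower in every library, and the values of Dach1 overlapped between libraries, since both sets were highest in library 1.

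Zfp366, a zinc-finger gene, had 26.7, 43.8, 26.6 and 49.2 CPM in endocardial nuclei and 265, 113, 104 and 209 CPM in capillary nuclei. Pcdh17, a protocadherin, had 13.3, 14.6, 33.5 and 44.04 CPM in endocardial nuclei, against 283, 76.3, 104 and 205 CPM in capillary nuclei. Slfn5, of the interferon-inducible schlafen family, had 116, 58.5, 81.9 and 115 CPM in endocardial nuclei and 518, 178, 227 and 349.8 CPM in capillary nuclei. These 3 did not overlap between the sets.

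Pdcd1lg2, which encodes the immune checkpoint ligand PD-L2, had 13.3, 0, 2.96 and 6.48 CPM in endocardial nuclei and 191, 20.3, 26.9 and 42.3 CPM in capillary nuclei, and 0 to 5 endocardial UMIs in any library. Dipk2b had 39.99, 14.6, 16.8 and 16.8 CPM in endocardial nuclei, against 225, 94.2, 83.9 and 123 CPM in capillary nuclei, and Slc26a10, of an anion transporter family, 66.6, 0, 49.3 and 51.8 CPM in endocardial nuclei and 701, 62.2, 162 and 185 CPM in capillary nuclei. Of the 10 named lower genes, 9 were at least 2-fold lower in library 2 as well, where an endocardial value of 0 allows up to 43.8 CPM.

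The endocardial nuclei were not uniform in Npr3, which was seen in 80.2, 26.1, 55.4 and 55.1% of them in libraries 1 to 4. Depth bears on such a share, and the medians were 1642, 3025 and 4710 UMIs in nuclei with Npr3 and 1279, 2690 and 3897 UMIs in nuclei without it in libraries 1, 3 and 4. Since Npr3 is part of the rule, the 2 kinds of nuclei are described without a test.

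Nuclei without Npr3 carried Bmp6, Zmat4 and Pgm5, which had been named as higher in all endocardial nuclei together. Bmp6 had 4217, 1683 and 1145 CPM in nuclei with Npr3 of libraries 1, 3 and 4, against 2949.6, 2089 and 1836 CPM in nuclei without it. Zmat4 had 1057, 673 and 664 CPM with Npr3 and 795, 643 and 526 CPM without it, and Pgm5 4146, 2539 and 2034 CPM with Npr3 and 3414, 2202 and 2068 CPM without it. All of these values lay above the capillary levels of the same libraries, and Bmp6 had its higher value on either side. The capillary rule genes summed to 2216, 1473 and 2127 CPM with Npr3 and 3115, 1966 and 1836 CPM without it. They were thus higher without Npr3 in libraries 1 and 3 and lower in library 4. Only nuclei without Npr3 can meet the capillary rule, so the 152 nuclei that met both rules lie among them. The part of capillary nuclei in these values was not tested.

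Other genes went with Npr3 or against it. Cgnl1 had 4787, 1622 and 1323 CPM in nuclei with Npr3, against 3447, 949 and 725 CPM in nuclei without it. Pkhd1l1 had 2365, 966 and 884 CPM with Npr3 and 1159.9, 461 and 536 CPM without it. Both were higher beside Npr3 in each library, with counting intervals that did not overlap. Ptgs2 went the other way, with 25.7, 148 and 240.4 CPM with Npr3 and 265, 461 and 431 CPM without it.

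Reln had 205, 189 and 364 CPM in nuclei with Npr3 of libraries 1, 3 and 4, against 0, 512 and 732 CPM in nuclei without it, where a count of 0 in library 1 (20 nuclei) allowed up to 122 CPM at the exact interval's upper bound. The lymphatic marker sum moved in the same way in libraries 3 and 4, with 313, 395 and 462 CPM with Npr3 and 33.1, 769 and 904 CPM without it. The part of lymphatic endothelial nuclei in these differences was not tested.

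**Figure D4:**
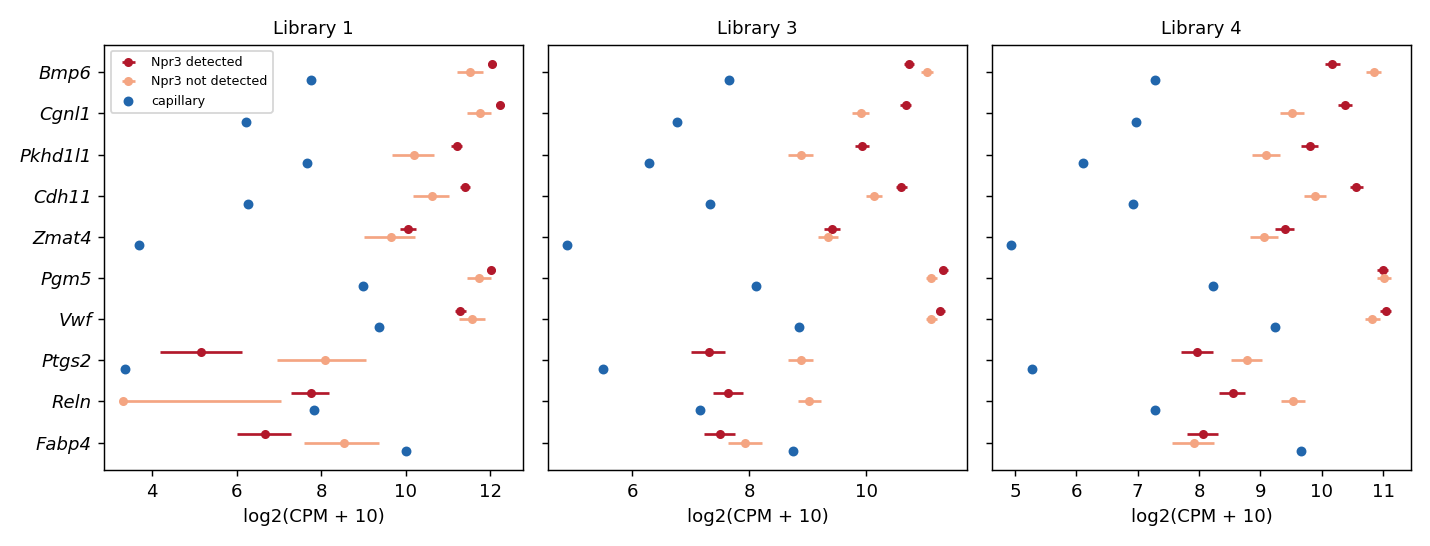
Levels as log2(CPM + 10) of 10 genes in endocardial nuclei with Npr3 (dark red), endocardial nuclei without Npr3 (light red) and capillary nuclei (blue) of libraries 1, 3 and 4. Bars are 95% counting intervals. Bmp6, Pgm5 and Zmat4 lie above the capillary points in both kinds, and Ptgs2 and Reln lie higher without Npr3 in libraries 3 and 4.

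Between libraries the endocardial nuclei differed most in Reg3g among the genes that no other compared class held more of. Reg3g and Reg3b encode secreted C-type lectins of the Reg3 family, known for killing bacteria in the gut and, for Reg3b in the injured mouse heart, for attracting macrophages. They lie on the same chromosome, and their stretches of 250 bases before the start (RefSeq, GRCr8) are shown because endocardial nuclei held little of both genes in library 1 and most in libraries 3 and 4. Capitals mark TATAAA and TTCNNNGAA on either strand. TTCNNNGAA is the core of STAT binding sites.

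Reg3g, chr4:112484739-112484988, minus strand: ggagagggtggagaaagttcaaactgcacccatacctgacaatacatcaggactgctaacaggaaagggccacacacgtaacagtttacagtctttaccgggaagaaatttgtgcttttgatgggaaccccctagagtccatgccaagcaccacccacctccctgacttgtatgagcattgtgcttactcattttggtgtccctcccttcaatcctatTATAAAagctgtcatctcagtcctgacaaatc
Reg3b, chr4:112419526-112419775, plus strand: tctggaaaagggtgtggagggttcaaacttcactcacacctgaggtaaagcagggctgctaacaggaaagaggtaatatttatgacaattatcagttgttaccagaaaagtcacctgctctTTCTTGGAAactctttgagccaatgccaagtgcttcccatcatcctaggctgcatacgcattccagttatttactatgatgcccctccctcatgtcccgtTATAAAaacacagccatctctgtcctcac

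Both windows held TATAAA close to the start, at -32 in Reg3g and -29 in Reg3b. At any position and on either strand, 12.9% of 33469 windows of this length held it. The share with a match so close to the start was not counted. Reg3b also held 1 TTCNNNGAA, at -129, which 7.67% of the windows hold, and Reg3g had none. A match is a run of letters and not a site of binding. Of the 15 named higher genes with a window, 1 held TATAAA, 1 held TTCNNNGAA and 3 held GATAA (23.5% of all windows).

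Reg3g had 8.89, 175, 1209 and 1308 CPM in endocardial nuclei of libraries 1 to 4, against 0, 31.1, 167 and 146 CPM in capillary nuclei. In library 1 it rested on 2 endocardial UMIs and none in capillary nuclei, so no ratio is given there, and in libraries 3 and 4 the ratios were 7.23-fold (6.75 to 7.74) and 8.95-fold (8.28 to 9.67). With the matched capillary rule they were 7.97-fold (7.20 to 8.83) and 38.2-fold (32.5 to 45.2), since capillary nuclei of library 4 then held 34.2 CPM. The endocardial level was the highest of all compared classes in each library. Reg3b had 0, 102, 266 and 202 CPM in endocardial nuclei, against 1.03, 27.8, 34.8 and 26.6 CPM in capillary nuclei, and was absent from endocardial nuclei of library 1, where up to 13.3 CPM were possible. Library 1 was lowest for both genes in both sets, and libraries 3 and 4 were highest for both in endocardial nuclei. The sources used here do not say how reads that match both genes were counted.

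The Reg3g RNA was concentrated in a minority of the endocardial nuclei. It was seen in 93 of 296 nuclei of library 3 and 50 of 147 of library 4, and the 30 and 15 nuclei with the most Reg3g held 90.9 and 85.7% of its UMIs. Without those nuclei, the endocardial level was 125 and 208 CPM. The 167 and 146 CPM of capillary nuclei are from all of them, untrimmed, and so give no like comparison. Without the single highest nucleus, with 316 UMIs, library 3 stood at 901 CPM. Reg3b was seen in 37 nuclei of library 3 and 15 of library 4, of which 28 and 13 held Reg3g too. After thinning to 500 UMIs, Reg3g was seen in 14.9 and 17.7% of endocardial nuclei of libraries 3 and 4, against 5.28 and 2.78% of capillary and 5.44 and 4.17% of cardiomyocyte nuclei. The endocardial share lay above both others, and the capillary share did not exceed the cardiomyocyte one. The part of free RNA in these shares was not tested. Unthinned, the endocardial shares were 31.4 and 34.01%.

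Mgp encodes matrix Gla protein, an inhibitor of calcification. It had 97.7, 775, 2030.3 and 2653 CPM in endocardial nuclei of libraries 1 to 4, against 171, 638, 935 and 1006 CPM in capillary nuclei and 1212, 1038, 1136 and 1871 CPM in fibroblasts. The endocardial level was under the capillary one in library 1, close to it in library 2 and above it in libraries 3 and 4, where it also exceeded that of fibroblasts. Mgp was spread more widely than Reg3g, with 254 of 296 and 134 of 147 nuclei of libraries 3 and 4 holding it, and the 30 and 15 nuclei with the most Mgp held 51.6 and 63.7% of its UMIs.

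Selp encodes P-selectin, which captures leukocytes, and had 0, 205, 145 and 162 CPM in endocardial nuclei, against 21.8, 48.99, 47.7 and 99.9 CPM in capillary nuclei. In library 1 it was absent from endocardial nuclei, with room for 13.3 CPM, and lower than in capillary nuclei, whereas it was higher in the other libraries. Against capillary nuclei of the matched rule its log2 ratios in libraries 3 and 4 were 0.50 and 0.12. Without the 30 and 15 endocardial nuclei with the most Selp, these libraries had 28.3 and 37.7 CPM. Capillary nuclei were not trimmed in this way, so their levels cannot be set against these values. Clvs1, which encodes a lipid-binding protein of vesicles, had 8.89, 307, 197 and 258 CPM in endocardial nuclei and 6.94, 45.2, 17.5 and 28.6 CPM in capillary nuclei, again with library 1 apart. Smoc1 ran the other way, with its endocardial maximum of 626 CPM in library 1, of which 1 nucleus held 48 of 141 UMIs. Mgp, Selp, Clvs1, Reg3b and Smoc1 were chosen after their values had been seen.

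**Figure D5:**
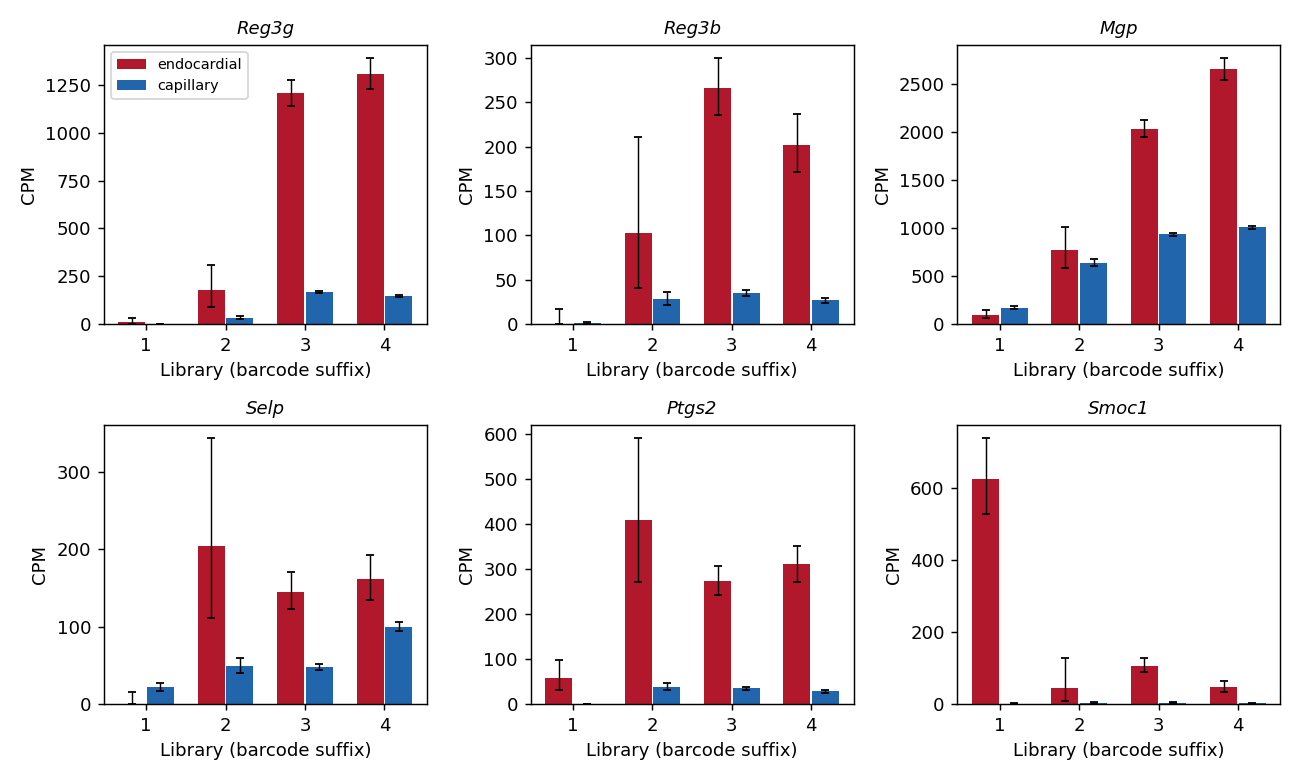
CPM of 6 genes in endocardial (red) and capillary (blue) nuclei of libraries 1 to 4, with exact Poisson 95% intervals that cover counting error only. Reg3g, Reg3b and Mgp are highest in endocardial nuclei of libraries 3 and 4, and Smoc1 in those of library 1.

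Other genes with the widest endocardial spans between libraries included Spp1, Gpnmb, Timp1, Lyz2, S100a6, Tyrobp, S100a4 and Prdx5. Spp1, which encodes the macrophage product osteopontin, had 0, 1519.8, 2727 and 554 CPM in endocardial nuclei, against 17.2, 2204, 3414 and 1158 CPM in capillary nuclei and 444, 6361, 7364 and 6836 CPM in macrophages. Lyz2, the lysozyme of myeloid cells, had 4.44, 175, 674 and 177 CPM in endocardial nuclei and 16.5, 251, 741 and 271 CPM in capillary nuclei. Both were highest in library 3 and lowest in library 1 in endocardial nuclei, as was the macrophage marker sum of 124, 438, 1609 and 431 CPM in endocardial nuclei, and the part of macrophage RNA in them was not tested.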

How the data were processed

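Nuclei of the infarct zone were isolated by Dounce homogenisation and sequenced with a 10x 3' v3 kit, per the labels' protocols. The deposited matrix holds UMI counts of 32623 genes, written by cellranger 5.0.1 per the file headers. Per the submitters' processing notes, Cell Ranger 6.1.1, Seurat and the build rn7 were used, so that version and build are unsettled. How far the genome build bears on gene names and counts was not tested. Reads of near-identical genes may be split between them, and the sources used here state no strand setting. Doublet removal before deposit is not stated either.

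Nuclei had at least 500 UMIs, 300 genes and at most 10% mitochondrial UMIs. Genes tested had a mean of at least 30 CPM over both sets in libraries 1, 3 and 4. Intervals are exact Poisson for CPM, conditional binomial for ratios and Clopper-Pearson for shares. The members, gene lists and markers were chosen with earlier results of these data known. Of 431 fixed symbols 17 were not found. The 20 higher and 10 lower named genes were ranked by their smallest log2 ratio over the 3 libraries and had at least 0.25 of the level of the highest other class. The 10 widest spans between libraries needed 50 UMIs and the same 0.25, and of each list the 2 highest and lowest members and all called ones were eligible. 1 gene among the widest spans is not reported here. Other classes were assigned by the largest sum of their markers, with at least 3 UMIs, and compared where they had at least 30 nuclei in a library. Of the barcode sequences, 264 occurred on more than 1 suffix, 6 of them on endocardial nuclei and none on a pair of them. Doublets were kept, and scrublet (scanpy 1.11.5, at 0.8% per 1000 nuclei) marked 650, 1706, 2166 and 340 nuclei for an alternative. The steps were tested on simulated data. Tools were Python 3.11.15, numpy 2.4.6, scipy 1.17.1 and pandas 2.3.3.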

Additional observations from a re-analysis of the deposited data

How the results depend on the processing

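Limits: with 1 library per sample and no map from libraries to samples, no value has a replicate error, and the range over libraries mixes samples and conditions. Endocardial depth limits low genes most in libraries 1 and 2. No paired analysis was possible because each sample is a single library and no result comes from a test. Of the results that answer a comparison, 360 values under the alternatives stayed within the spread or 1.5 times the count and 54 moved. Of the values for named genes 1267 stayed and 132 moved. Among the named genes that were called, none changed the sign of its median log2 ratio over the libraries used. The other called genes were not followed. The causes of the moves were not tested.

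The numbers of nuclei and their shares among both endothelial sets depended most on the rules. With Npr3 required, 6, 164 and 81 endocardial nuclei were left in libraries 2 to 4 and the shares in libraries 1 to 4 were 4.02, 1.17, 4.72 and 3.17%. Capillary nuclei without any Npr3, Nrg1 or Hmcn1 gave 9.89, 9.31, 19.2 and 13.8%. The matched capillary rule gave 8.42, 16.4 and 9.22% in libraries 2 to 4, and removal of nuclei in which another class outweighed the gate genes gave 8.40, 14.9 and 7.62%. Removal of nuclei that met both rules left 15 endocardial nuclei in library 2 and shares of 5.93 and 3.80% in libraries 3 and 4, and removal of doublets gave 10.2% in library 3. Nuclei with fewer than 3 UMIs of every non-endothelial class numbered 47, 4, 23 and 23, with shares of 6.48 and 11.1% in libraries 1 and 3.

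With that last filter only library 1 could be used, and 605 genes were higher and 811 lower. The median log2 ratios were then 2.06 for identity, 0.69 for signals, 0.58 for endothelial-mesenchymal transition, 0.080 for matrix, -0.48 for coagulation, -0.52 for the natriuretic system, -0.87 for hypoxia, -0.99 for immediate early genes, -1.45 for interferon and -3.05 for capillary metabolism. With free RNA subtracted at the share estimated above, 270 genes were higher and 313 lower. The medians were then 2.58 for identity, 1.84 for cell cycle, 0.86 for endothelial-mesenchymal transition, 0.75 for signals, -0.38 for flow sensing and -0.52 for the natriuretic system. Lower genes numbered 132 with the matched capillary rule and 136 without nuclei of another class, and the identity median was 1.49 and 1.66. Thinning gave 0.42 for signals and -0.48 for the natriuretic system.

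Leaving out library 1, 3 or 4 gave 141 to 150 higher and 81 to 117 lower genes, the last without library 3, and an identity median of 0.82 to 1.18. TMM scaling gave 113 higher and 58 lower genes, and median-of-ratios scaling 126 and 51, and TMM placed the median of all genes at -0.28 in library 1, against -0.14 unscaled. The matched rule, the removal of nuclei of another class and the use of library 2 were added after the data had been seen.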

Other observations

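Further genes stood apart in how the difference between endocardial and capillary nuclei varied over the libraries, and were chosen after their values had been seen. Pawr, which encodes a pro-apoptotic protein, had 769, 278, 281 and 469 CPM in endocardial nuclei of libraries 1 to 4, against 17.2, 64.1, 43.3 and 117 CPM in capillary nuclei. Slc9a9, an endosomal sodium-proton exchanger gene, had 2501, 468, 1170.05 and 1117 CPM in endocardial nuclei and 149, 113, 389 and 154 CPM in capillary nuclei. Both were called higher, with the largest difference in library 1, and macrophages of library 1 held 2465 CPM of Slc9a9.

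Lpar6, a lysophosphatidic acid receptor gene, had 17.8, 87.7, 89.8 and 101 CPM in endocardial nuclei, against 63.5, 35.8, 40.5 and 43.6 CPM in capillary nuclei. Ralgps1 had 8.89, 87.7, 84.8 and 99.7 CPM in endocardial nuclei and 29.05, 45.7, 26.7 and 36.7 CPM in capillary nuclei. Both were lower in endocardial nuclei of library 1 and higher in those of the other libraries. The difference between libraries was not tested.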
